A study of Mus musculus with 15 samples.

Results

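Bst2 and 8 other genes linked to interferon signalling were followed through a knockdown of Smarcb1 in mouse embryonic stem cells. The members are Bst2, Ifitm1, Ifitm2, Ifitm3, Isg20, Irf1, B2m, H2-K1 and H2-D1, and were taken by gene symbol, giving 9 of the 55228 genes listed in the files. The set was chosen by the level of Bst2, which was higher at all 3 knockdown timepoints. The difference in Bst2 between knockdown and control is therefore a description here, with no test of it given, while the other 8 genes were read against all genes tested.

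RNA was sequenced in 15 libraries of the line 81K1, with 3 libraries in each of 5 groups. 81K1 is 1 clone (K1) based on the embryonic stem cell line OG2, and all groups carry, in the Rosa26 locus, a cassette for an shRNA that targets Smarcb1 (a subunit shared by BAF chromatin remodellers) under a doxycycline-dependent promoter. Cells were grown on gelatine with serum and leukaemia inhibitory factor. Control cells (ctrl) received no doxycycline and were sampled at 48 h and 240 h, and knockdown cells (kd) received 1 µg doxycycline per ml each day and were sampled at 48 h, 72 h and 240 h. The 72 h group has no control of its own and was set against the 48 h controls, so that the comparisons at 48 h and 72 h share 3 libraries. Doxycycline-treated cells without this shRNA were not analysed here, and an effect of doxycycline or of the shRNA cannot be told apart from loss of Smarcb1. The labels do not say whether replicates were separate cultures, so the p-values measure the spread between these libraries, which may be technical.

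Libraries held 11074998 to 14515300 reads. Smarcb1 was at 3.60 ± 0.29 FPKM (SD, n = 3) without knockdown at 48 h and 3.42 ± 0.12 at 240 h. With knockdown it was at 0.647 ± 0.16 (48 h), 0.564 ± 0.066 (72 h) and 0.660 ± 0.053 (240 h). FPKM are reads scaled by the kilobases of the gene span and by the library total. All 10 embryonic stem cell markers were detected in every group, with a summed level of 1488 to 2517 FPKM per library. Of 14 blood and immune cell markers, Ly6g and Itgax were at 0 in all groups and Ptprc, which marks leukocytes, was at 0 in 48 h ctrl, 48 h kd and 240 h kd. The sum of these 14 markers spanned 2.15 to 2.52 FPKM (48 h) and 2.92 to 3.43 FPKM (240 h) among controls. Among knockdown libraries it spanned 4.12 to 4.16 FPKM (48 h), 6.77 to 7.27 (72 h) and 3.53 to 3.87 (240 h). Most of it was Cd68, a lysosomal membrane protein, whose mean was 1.39 FPKM for 48 h ctrl and 5.78 FPKM for 72 h kd. By the limma test described below Cd68 was called higher at 48 h and at 72 h and from 48 h to 72 h of knockdown, and lower from 72 h to 240 h, and by voom on recovered reads Cd3e and Cd79a were also called higher at 72 h. Of the embryonic stem cell markers Klf4 was called lower at 48 h, 72 h and 240 h, Dppa5a higher at 72 h, and Esrrb and Zfp42 lower at 240 h. The 7 primordial germ cell markers summed to 34.6 to 38.5 and 29.4 to 29.8 FPKM in controls of 48 h and 240 h, and to 31.7 to 36.4, 50.2 to 55.3 and 39.0 to 40.1 FPKM after 48, 72 and 240 h of knockdown. Of the 6 tested, 1 was called lower at 48 h, 1 higher at 72 h, and 3 higher and 2 lower at 240 h. The 10 fibroblast markers summed to 1.66 to 1.86 FPKM in 240 h kd, with Col1a1 called higher, and to at most 1.06 FPKM in the other groups. Voom called 1 fibroblast marker higher and 1 lower at 48 h, 2 and 1 at 72 h, and 4 and 0 at 240 h. The 7 endothelial markers summed to 0.445 to 0.461 and 0.446 to 0.483 FPKM in controls of 48 h and 240 h, and to 0.207 to 0.225, 0.317 to 0.357 and 0.416 to 0.430 FPKM under knockdown in order of time. Voom called 2 of 3 tested lower at each timepoint. The sums of 7 primitive endoderm markers were 0.578 to 0.596 and 0.768 to 0.804 FPKM in the same controls, and 0.243 to 0.332, 0.155 to 0.244 and 0.564 to 0.706 FPKM under knockdown. Of 5 tested by voom, Sox7 was called lower at all 3 timepoints, and Dab2, Gata6 and Pdgfra higher at 240 h. Of all genes tested, the limma test called 3.99% at 48 h, 13.5% at 72 h and 8.91% at 240 h. Voom called 9.32% (4.99% lower), 22.5% (10.4% lower) and 18.1% (8.41% lower) in the same order. The part of the marker movements in the results below was not tested.

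Interferons are secreted proteins that bind receptors on the cell surface and act through JAK kinases and STAT factors on genes with interferon-stimulated response elements (ISRE) or gamma-activated sites (GAS) in their promoters. The products include proteins that hold back viruses, such as Bst2 (tetherin, which tethers budding virions to the cell surface), and the machinery by which MHC class I molecules present peptides. Embryonic stem cells are known for a weak response to interferon and for low surface MHC class I, and they express some antiviral genes, among them Ifitm genes, without added interferon.

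The promoters were read from RefSeq (GRCm38.p6), in which all 9 members had an entry and together 13 windows of 300 bases around a transcription start. An ISRE core was searched as GAAA, 2 bases of any kind and GAAA again, a variant of it as GAANNGAAA and a GAS as TTCNNNGAA, on both strands, and these occurred in 3.44%, 7.52% and 8.3% of all 32851 promoter windows. The ISRE core was found in 4 members (Bst2, B2m, Ifitm2 and Ifitm3), the variant in 2 (H2-K1 and H2-D1) and the GAS in 4 (Bst2, Ifitm3, Irf1 and Isg20). None of these letters was found in the only window of Ifitm1 (chr7:140967826-140968125). It lies inside the listed gene span, and the bases before the listed gene start at 140967221 were not searched. The stretches around the matches of 7 members are printed to show how the motifs are laid out, with matched bases in capitals. They lie on the strand of the gene at chr8:71537568-71537627 (minus) for Bst2, chr2:122147523-122147582 (plus) for B2m, chr7:140955973-140956032 (minus) for Ifitm2, chr7:141010723-141010752 (minus) for Ifitm3, chr11:53769898-53769957 (plus) for Irf1, chr17:34000404-34000463 (minus) for H2-K1 and chr17:35262918-35262977 (plus) for H2-D1.
Bst2: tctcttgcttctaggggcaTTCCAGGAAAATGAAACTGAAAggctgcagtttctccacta
B2m: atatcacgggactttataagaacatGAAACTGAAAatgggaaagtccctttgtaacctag
Ifitm2: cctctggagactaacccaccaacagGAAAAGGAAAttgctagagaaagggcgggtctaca
Ifitm3: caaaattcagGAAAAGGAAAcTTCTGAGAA
Irf1: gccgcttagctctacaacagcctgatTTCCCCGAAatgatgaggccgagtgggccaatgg
H2-K1: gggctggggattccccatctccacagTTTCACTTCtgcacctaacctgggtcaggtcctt
H2-D1: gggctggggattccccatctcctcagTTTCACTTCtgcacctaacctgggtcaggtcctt

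In Bst2 the capitals join 3 overlapping matches, a GAS that begins at position -136 from the start and ISRE cores at -130 and -124. B2m has an ISRE core at -139 with the same letters as the second ISRE core of Bst2, and Ifitm2 has 1 at -46. The matches of Ifitm3 lie just after the start, an ISRE core at position 3 and a GAS at 14 being printed, and a second ISRE core at 20 overlapping the GAS. Irf1 carries a GAS at -90. The stretches of H2-K1 and H2-D1 differed at 1 of 60 bases and hold the variant on the opposite strand. These matches are descriptions of the letters, and binding of a factor was not measured.

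The members span a wide range of levels. Compared between genes as FPKM recomputed over exonic length, 48 h ctrl cells held the most Ifitm3 (325 ± 14.3, SD, n = 3) and Ifitm2 (323 ± 22.3), which did not differ beyond their spread. Ifitm1 (181 ± 12.4) and Bst2 (46.6 ± 4.20) followed. H2-K1 (16.7 ± 0.598) and B2m (15.4 ± 1.32) lay within their spread of each other, above Irf1 (8.08 ± 0.333) and H2-D1 (4.77 ± 0.348). Isg20, an exonuclease for single-stranded RNA and DNA, was lowest at 0.129 ± 0.0747. In 72 h kd the same measure put B2m (55.4 ± 1.81) above H2-K1 (17.6 ± 1.06), with Bst2 at 127 ± 4.45.

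**Figure D1:**
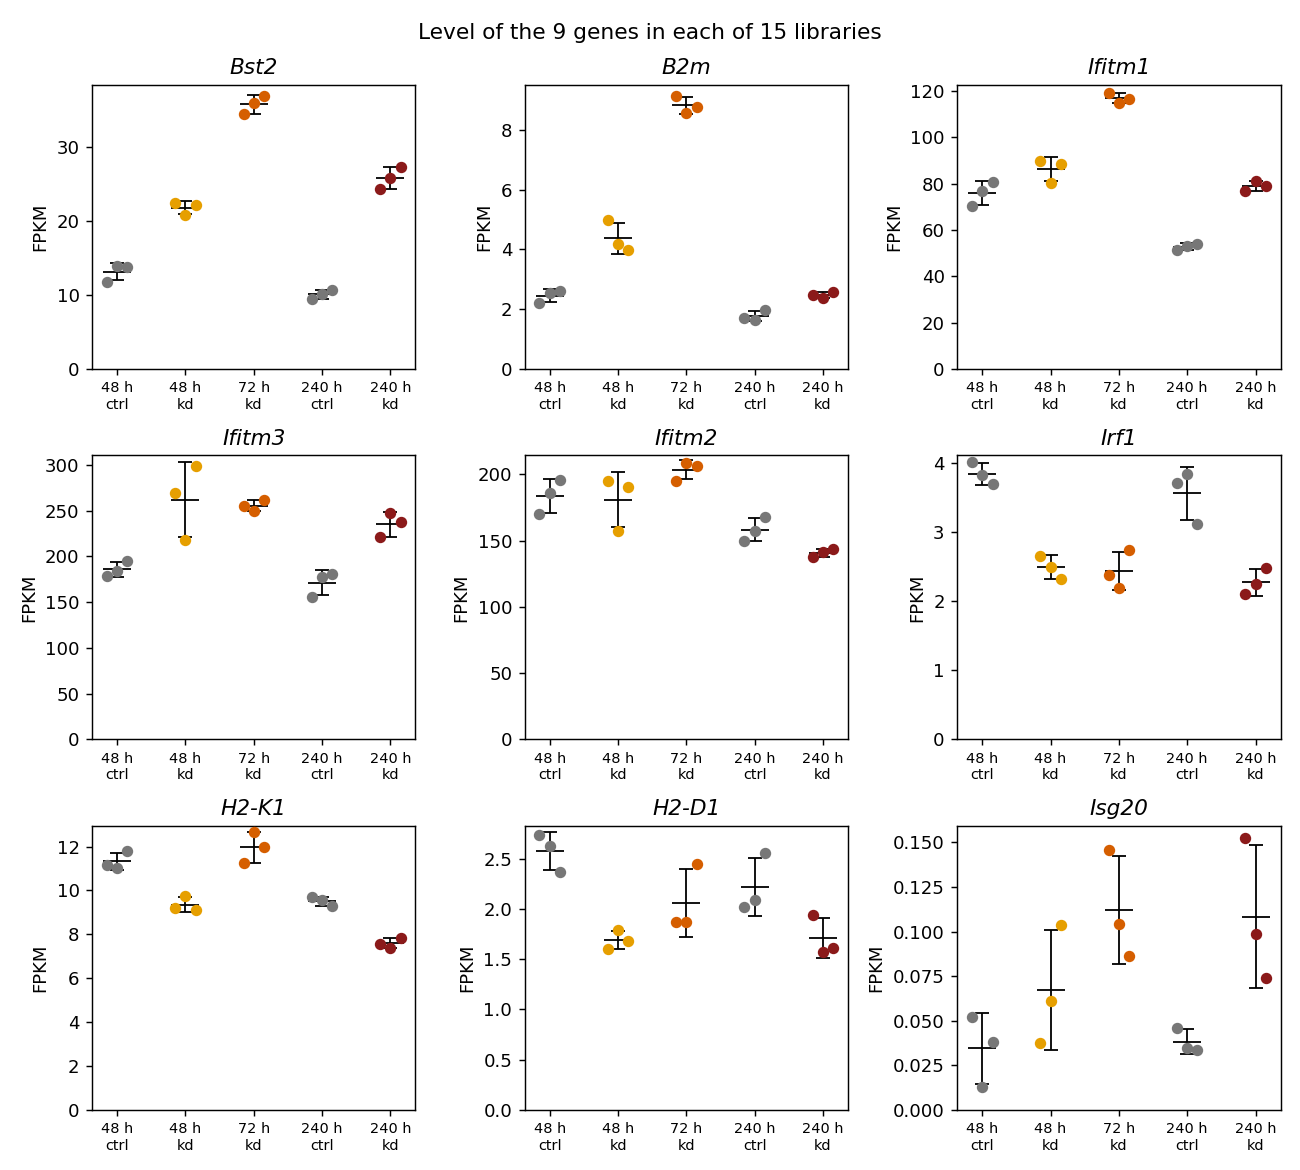
FPKM of the 9 genes in each library (coloured points, n = 3 per group) with the group mean and SD (black bars), each panel on its own linear axis from 0. Bst2 and B2m peak in 72 h kd, at means of 35.7 and 8.82 FPKM, and Irf1 is lower in all 9 knockdown libraries than in all 6 control libraries.

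Bst2 (chr8:71534255-71537456, minus strand, ENSMUSG00000046718.8, mm10) was higher in every knockdown library than in any control library. Controls had 11.8, 13.8 and 13.8 FPKM at 48 h and 9.49, 10.1 and 10.7 at 240 h. Knockdown libraries had 22.4, 20.8 and 22.1 FPKM at 48 h, 34.4, 35.9 and 36.9 at 72 h, and 24.3, 25.8 and 27.3 at 240 h. The levels thus peaked at 72 h of knockdown. The ratio of the group means was 1.66 at 48 h, 2.72 at 72 h and 2.56 at 240 h, corresponding to log2 fold changes of 0.73, 1.44 and 1.35 on the scale of log2(FPKM + 0.1), which is used for every fold change below unless stated otherwise. The difference at 240 h exceeded that at 48 h by 0.62 on this log2 scale.

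Other changes of Bst2 come from the values by which it was chosen, so they too are a description without a test. A gene was called where limma gave an adjusted p below 0.05 and an absolute log2 fold change above 0.58, over all genes tested. Bst2 rose from 48 h to 72 h of knockdown (log2 fold change 0.71, SE 0.05). In that comparison 7.45% of all genes tested were called and 4.17% were called higher. The 240 h controls were lower than the 48 h controls in all 3 libraries, by less than the fold threshold (log2 fold change -0.38, SE 0.08). From 72 h to 240 h of knockdown Bst2 differed by -0.47 (SE 0.05), which is not past the fold threshold. This last comparison was added after the values were seen.

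Since these are bulk libraries, fewer cells expressing a gene and less RNA per cell cannot be told apart for any gene described here.

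The other 8 members did not move as 1 group in the 3 comparisons of knockdown with control. With 7 of them tested, Isg20 being too low, 2 were called at 48 h (1 higher, 1 lower), 3 at 72 h (2 higher, 1 lower) and 1, lower, at 240 h. Among all genes tested 3.99% were called at 48 h (1.99% higher, 2.01% lower), 13.5% at 72 h (8.23% higher, 5.3% lower) and 8.91% at 240 h (4.79% higher, 4.12% lower). The groups did not overlap for 5, 4 and 7 of the 7 members, and for 39.4%, 64.7% and 50.2% of all genes. The median log2 fold change of the 7 was -0.03 at 48 h, 0.15 at 72 h and -0.17 at 240 h, beside 0.01, 0.01 and 0.00 over all genes tested. In the 240 h controls against the 48 h controls none of the 7 was called by limma, by either the FPKM fit or limma voom on recovered reads, with 4 at an unadjusted p below 0.05 in each. Of all genes, 0.475% were called by the FPKM fit and 1.38% by voom. All 7 members were lower in the 240 h controls, with a median log2 fold change of -0.22 beside -0.02 over all genes tested. From 72 h to 240 h of knockdown, chosen after the values were seen, all 7 were lower (median -0.53 beside -0.02). There 2 of them were called lower, as were 9.29% of all genes tested.

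**Figure D2:**
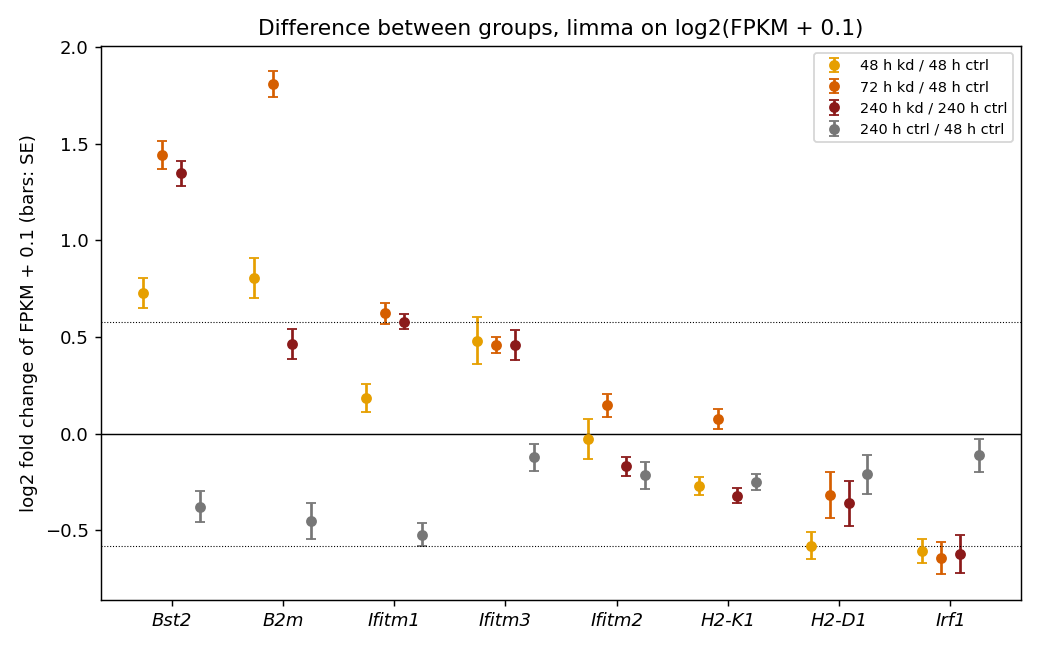
Log2 fold change of FPKM + 0.1 (points) and its SE (bars) for the 8 genes with enough signal, in the 3 knockdown comparisons and between the 240 h and 48 h controls; dotted lines mark 0.58 and -0.58. B2m is highest at 72 h (1.81), Irf1 lies between -0.64 and -0.61 in all 3 knockdown comparisons, and values for Bst2 are shown as a description.

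B2m (chr2:122147686-122153083, plus strand) encodes beta-2-microglobulin, the light chain that every classical MHC class I molecule needs to reach the cell surface. Control libraries held 2.21, 2.52 and 2.62 FPKM of B2m at 48 h and 1.70, 1.64 and 1.97 at 240 h. Knockdown libraries held 4.97, 4.17 and 3.96 FPKM at 48 h, 9.13, 8.56 and 8.78 at 72 h, and 2.47, 2.36 and 2.58 at 240 h. The knockdown libraries were above their controls at each timepoint, with the 72 h libraries far above the rest. B2m rose at 48 h (log2 fold change 0.80, SE 0.10, limma adjusted p = 0.00765) and at 72 h (1.81, SE 0.07, limma adjusted p = 4.2e-05). With the replicate number as a block the call at 48 h was lost (limma adjusted p = 0.0625). At 240 h the difference of 0.46 (SE 0.08, limma adjusted p = 0.00731) was below the fold threshold.

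Between the knockdown groups B2m rose from 48 h to 72 h (log2 fold change 1.00, SE 0.09, limma adjusted p = 0.0017) and fell from 72 h to 240 h (-1.79, SE 0.04, limma adjusted p = 1.79e-05, chosen after the values were seen). In that last comparison 15.7% of all genes were called, and 9.29% were called lower. The knockdown effect at 240 h minus that at 48 h was -0.34 for B2m (SE 0.14, limma adjusted p = 0.129). B2m lies inside the span of Patl2, and whether the counting used strand is not given in the sources used here, so reads of the overlapping genes cannot be told apart. Reads in the span of Patl2 but outside B2m numbered 39 to 56 (48 h) and 50 to 58 (240 h) per control library, and 71 to 83 (48 h), 130 to 145 (72 h) and 35 to 53 (240 h) per knockdown library. B2m itself had 151 to 164, 109 to 136, 237 to 309, 571 to 631 and 176 to 190 reads in the same order. The share of Patl2 reads within the B2m value was not tested.

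H2-K1 (chr17:33996017-34000347, minus strand) and H2-D1 (chr17:35262730-35267499, plus strand) encode the polymorphic heavy chains that pair with B2m and hold the peptide. Heavy chain genes are near-identical over long stretches, so the values depend on how reads matching several copies were treated, which the sources used here do not give. Control libraries held 11.14, 11.04 and 11.79 FPKM of H2-K1 at 48 h and 9.69, 9.54 and 9.27 at 240 h. Knockdown libraries held 9.22, 9.75 and 9.11 FPKM at 48 h, 11.24, 12.67 and 11.96 at 72 h, and 7.55, 7.38 and 7.85 at 240 h. The kd libraries lay below ctrl at 48 h and 240 h. At 72 h they overlapped the 48 h ctrl libraries and lay above every 240 h ctrl library.

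None of these differences was past the fold threshold: the log2 fold change of H2-K1 was -0.27 ± 0.05 (SE) at 48 h, with a limma adjusted p of 0.0175. It was 0.077 at 72 h (limma adjusted p = 0.266) and -0.32 ± 0.04 at 240 h (limma adjusted p = 0.00211). Against the 240 h controls the 72 h value of H2-K1 was 0.33 (limma adjusted p = 0.00312), also below the fold threshold. H2-K1 fell from 72 h to 240 h of knockdown (-0.65, SE 0.05, limma adjusted p = 0.000242), and on values rescaled to TPM that difference was -0.57 and not called. H2-D1 was lower, without overlap, in knockdown libraries at 48 h (1.60, 1.79 and 1.68 FPKM) than in their controls (2.74, 2.63 and 2.37 FPKM). Its log2 fold change at 48 h was -0.58 (SE 0.07, limma adjusted p = 0.00585), which lay just inside the fold threshold and was not called. H2-D1 was called under 6 of 15 alternatives, among them limma voom (-0.61) and the fits without 48 h kd replicate 2 (-0.62) or 48 h ctrl replicate 3 (-0.64). H2-D1 differed by -0.32 ± 0.12 (SE) at 72 h (limma adjusted p = 0.0665) and by -0.36 ± 0.12 at 240 h (limma adjusted p = 0.0635). Against the 240 h controls the 72 h value was -0.11 (limma adjusted p = 0.528).

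Light and heavy chain reads were also set against each other within each library, a quotient that needs no scaling between libraries. Per 100 reads of H2-K1 and H2-D1 together, 48 h ctrl libraries held 19.5 to 22.7 reads of B2m and 240 h ctrl libraries 17.2 to 20.3. The 48 h kd libraries held 44.4 to 56.4, the 72 h kd libraries 72.5 to 85.6 and the 240 h kd libraries 31.8 to 33.5. None of the 5 groups of libraries overlapped another except the pair of control groups. This quotient was described and not tested, and it uses the same Patl2-overlapping B2m reads.

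**Figure D3:**
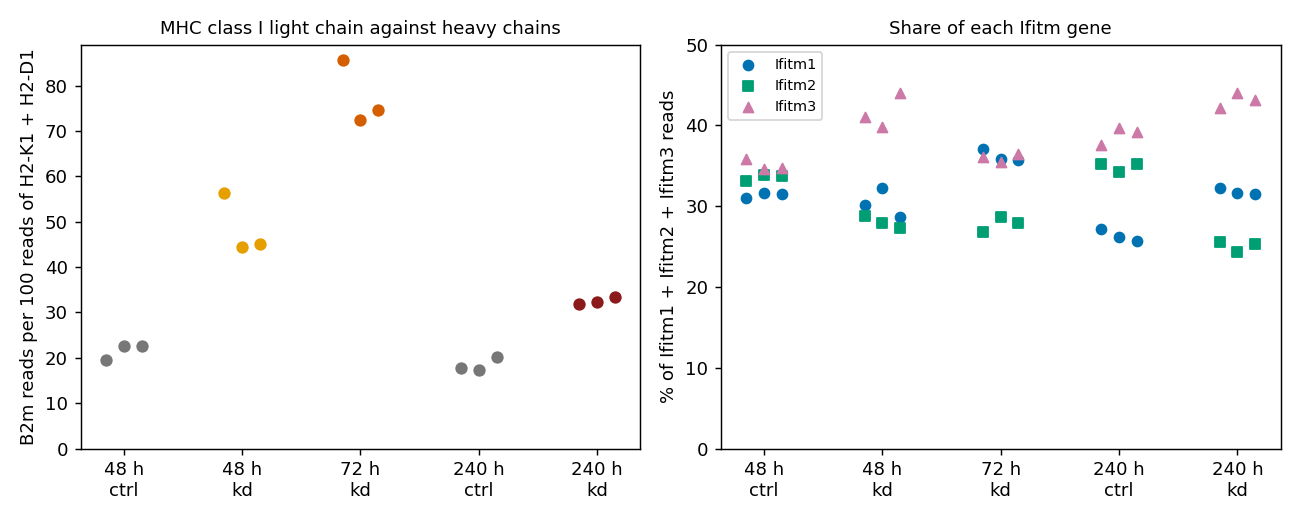
Left, B2m reads per 100 reads of H2-K1 plus H2-D1 in each library; right, percentage of the summed Ifitm1, Ifitm2 and Ifitm3 reads that each gene takes, with 3 libraries per group. On the left 72 h kd lies highest at 72.5 to 85.6; on the right the share of Ifitm2 is 33.1% to 35.2% in controls and 24.4% to 28.8% in knockdown libraries.

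Ifitm1, Ifitm2 and Ifitm3 are membrane proteins that impede fusion of viruses with the cell, encoded within 55.9 kb of chromosome 7. They resemble each other in sequence, and Ifitm2 overlaps the predicted gene Gm45717, so reads may be split or shared between them. Ifitm1 (chr7:140967221-140969825, plus strand) was at 70.4, 76.7 and 80.7 FPKM at 48 h and 51.2, 53.2 and 54.0 at 240 h without knockdown. Under knockdown Ifitm1 was at 90.0, 80.4 and 88.5 FPKM at 48 h, 119, 115 and 117 at 72 h, and 76.7, 81.1 and 78.9 at 240 h. The groups overlapped at 48 h and stood apart at 72 h and 240 h. Ifitm1 rose at 72 h (log2 fold change 0.62, SE 0.05, limma adjusted p = 0.000401), a call that was lost without 48 h ctrl replicate 1 (0.57) and that became 1.15 against the 240 h controls.

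At 48 h Ifitm1 differed by 0.18 (SE 0.07, limma adjusted p = 0.149). At 240 h it differed by 0.58 (SE 0.04, limma adjusted p = 0.000313), just under the fold threshold, and was called under 5 of 15 alternatives. The knockdown effect on Ifitm1 was larger at 240 h than at 48 h by 0.40 (SE 0.08, limma adjusted p = 0.0103), which was past the p threshold but not called, in a comparison where 5.82% of all genes were called. Between the 240 h and 48 h controls Ifitm1 differed by a log2 value of -0.52 (SE 0.06, limma adjusted p = 0.0357), and leaving out 1 library raised this p to between 0.0631 and 0.145.

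Ifitm3 (chr7:141009586-141010770, minus strand), the family member best known for restricting influenza virus, was at 179, 185 and 195 FPKM at 48 h and 156, 177 and 181 at 240 h without knockdown. Under knockdown Ifitm3 was at 270, 218 and 299 FPKM at 48 h, 255, 250 and 262 at 72 h, and 221, 248 and 237 at 240 h. Every knockdown library was above every control library, and 48 h kd replicate 2 was the lowest of the knockdown libraries at 48 h. That library also had the highest share of mitochondrial reads of all 15 (2.53%, against 0.507% to 1.95% in the others). The log2 fold change of Ifitm3 was 0.48 ± 0.12 (SE) at 48 h (limma adjusted p = 0.0522), 0.46 ± 0.04 at 72 h (limma adjusted p = 0.000435) and 0.46 ± 0.08 at 240 h (limma adjusted p = 0.00741). None was called, since they were below the fold threshold or, at 48 h, above the p threshold. Without 48 h kd replicate 2 the value at 48 h was 0.61 (limma adjusted p = 0.0102) and called, as was the value of 0.58 for 72 h against the 240 h controls (limma adjusted p = 0.00102).

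Ifitm2 (chr7:140954837-140955987, minus strand) had means of 184 ± 12.7 FPKM (SD, n = 3) at 48 h and 158 ± 8.81 at 240 h without knockdown, and of 181 ± 20.6 (48 h), 203 ± 7.20 (72 h) and 141 ± 2.87 (240 h) under knockdown. Its log2 fold changes were -0.03 at 48 h (limma adjusted p = 0.881), 0.15 at 72 h (limma adjusted p = 0.0808) and -0.17 at 240 h (limma adjusted p = 0.0494), with no call. Against the 240 h controls the 72 h value was 0.36 (limma adjusted p = 0.00268), below the fold threshold. Within the family, the share of Ifitm2 among the reads of the 3 genes was 33.1% to 33.8% (48 h) and 34.2% to 35.2% (240 h) in controls. Under knockdown it was 27.3% to 28.8% (48 h), 26.8% to 28.7% (72 h) and 24.4% to 25.6% (240 h), below every control library. The share of Ifitm3 at 48 h was 34.6% to 35.9% without and 39.8% to 44.0% with knockdown, while at 72 h it was 35.4% to 36.4% and Ifitm1 took 35.7% to 37.1%. At 240 h Ifitm3 took 37.6% to 39.7% without and 42.2% to 44.0% with knockdown.

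Irf1 (chr11:53770014-53778374, plus strand) encodes a transcription factor that binds ISRE-like sites and drives class I genes after interferon gamma. It went the opposite way to Bst2. Controls had 4.01, 3.82 and 3.70 FPKM of Irf1 at 48 h and 3.71, 3.85 and 3.12 at 240 h. Knockdown libraries had 2.66, 2.50 and 2.32 FPKM at 48 h, 2.37, 2.19 and 2.74 at 72 h, and 2.10, 2.24 and 2.49 at 240 h. All knockdown libraries were below all control libraries.

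Irf1 fell at each timepoint, with log2 fold changes of -0.61 ± 0.06 (SE) at 48 h, -0.64 ± 0.08 at 72 h and -0.62 ± 0.10 at 240 h and limma adjusted p-values of 0.00397, 0.00175 and 0.0064. These values lay close to the fold threshold. The call was lost without 48 h kd replicate 3 (-0.56) or 48 h ctrl replicate 1 (-0.575) at 48 h, without 72 h kd replicate 2 (-0.57) at 72 h, and without 240 h kd replicate 1 (-0.57) or 240 h ctrl replicate 2 (-0.56) at 240 h. Against the 240 h controls the 72 h value was -0.53 and not called. The adjusted p stayed at or below 0.0356 for Irf1 under every alternative run at the 3 timepoints. Irf1 overlaps the predicted gene Gm17334, which had 19 to 56 reads per library.

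Isg20 (chr7:78913424-78920396, plus strand) was below the minimum of 0.5 FPKM in all groups. Controls had 5, 1 and 3 reads at 48 h and 4, 3 and 3 reads at 240 h. Knockdown libraries had 3, 5 and 8 reads at 48 h, 13, 9 and 8 at 72 h, and 14, 10 and 7 at 240 h. The 72 h kd and 240 h kd libraries lay above their controls and the 48 h kd libraries overlapped theirs. In limma with no FPKM minimum, added after the values were seen, the log2 fold change of Isg20 was 0.31 at 48 h (adjusted p = 0.472), 0.66 at 72 h (adjusted p = 0.0403) and 0.58 at 240 h (adjusted p = 0.0755). At such counts the log2(FPKM + 0.1) scale understates fold changes.

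The rest of the pathway was taken from 9 gene lists with 159 genes found in the files, of which 48, 46 and 47 passed the FPKM minimum at 48 h, 72 h and 240 h. Called were 1 higher and 1 lower at 48 h, 2 higher and 5 lower at 72 h, and 3 higher and 5 lower at 240 h. The median log2 fold change over the tested pathway genes was -0.01, 0.04 and -0.04, beside 0.01, 0.01 and 0.00 over all genes. With limma voom on the recovered reads, which tests genes of lower level, 95, 96 and 99 pathway genes were tested, of which 1 was called higher and 8 lower at 48 h, 13 higher and 21 lower at 72 h, and 8 higher and 15 lower at 240 h. Among all genes tested by voom, 9.32% were called at 48 h (4.33% higher, 4.99% lower), 22.5% at 72 h (12% higher, 10.4% lower) and 18.1% at 240 h (9.64% higher, 8.41% lower). Both minimums apply to the mean over the compared libraries, and some called pathway genes passed only through the group where they were higher, the other group's mean lying below the minimum. These were 1 of the 2, 2 of the 7 and 3 of the 8 called by the FPKM fit, and 3 of the 9, 7 of the 34 and 3 of the 23 called by voom, so the counts of calls are a description. No called member passed in this way.

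**Figure D4:**
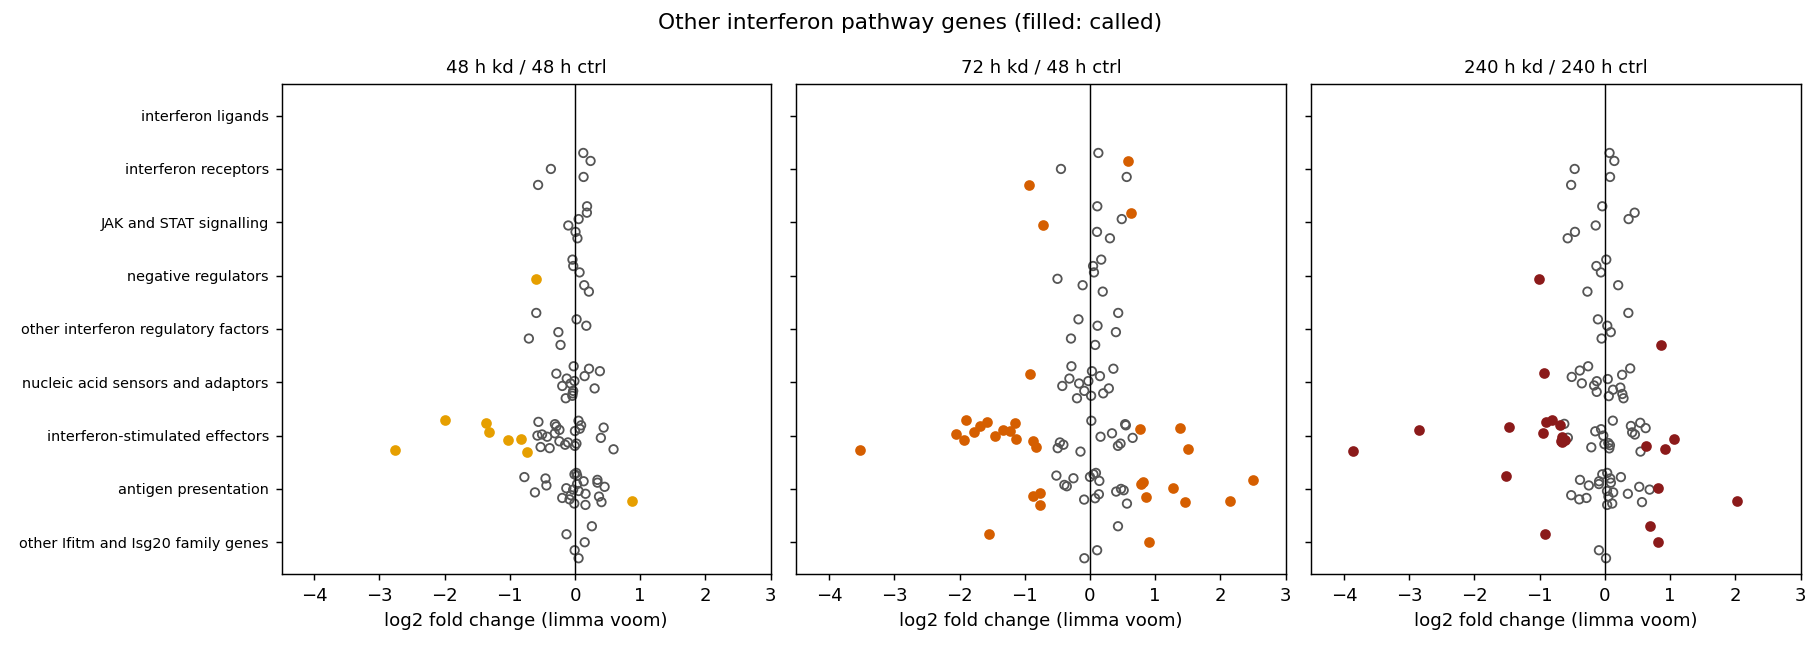
Log2 fold change by limma voom on recovered reads for the genes of each pathway list (points; filled, called) in the 3 knockdown comparisons; no interferon ligand reached the read minimum. Called interferon-stimulated effectors numbered 7 lower and 0 higher at 48 h, 14 and 3 at 72 h, and 11 and 3 at 240 h, some of which passed the read minimum through 1 group alone, and Tap1 is the called antigen presentation gene at 48 h (0.88).

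Transcripts of the interferons themselves were all but absent: 9 of 11 ligand genes had 0 reads in all 15 libraries, the 11 genes had 14 reads in total, and no gene exceeded 4 reads in 1 library. These counts bound what the sequencing could see and not what the cells secreted. Of the 6 receptor genes, 1 was tested at the FPKM minimum and was not called. By voom 5 were tested, with no call at 48 h or 240 h (2 at an unadjusted p below 0.05 each) and with 1 higher and 1 lower at 72 h, both named after their values were seen. Ifnar2, a subunit of the type I interferon receptor, had 83 to 109 reads in each control library of 48 h and 148 to 165 after 72 h of knockdown (0.58, SE 0.12, limma adjusted p = 0.000104). Ifnlr1, a subunit of the interferon lambda receptor, had 35 to 51 and 19 to 29 reads (-0.94, SE 0.22, limma adjusted p = 0.000509).

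Among signal transducers, Stat2 and Irf9, subunits of the complex that binds ISRE, were not called at any timepoint. Their log2 fold changes were 0.01, 0.12 and -0.41 for Stat2 and 0.17, 0.12 and -0.02 for Irf9 at 48 h, 72 h and 240 h.

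Ptpn6, a phosphatase that dampens cytokine signalling, was lower in knockdown libraries without overlap at each timepoint, with means of 1.46 and 1.41 FPKM in controls of 48 h and 240 h and of 0.962, 1.04 and 0.706 FPKM after 48, 72 and 240 h of knockdown. Ptpn6 fell at 240 h (-0.91, SE 0.08, limma adjusted p = 0.00083). Its differences of -0.56 at 48 h (SE 0.08, limma adjusted p = 0.0086) and -0.46 at 72 h (SE 0.06, limma adjusted p = 0.00167) were below the fold threshold, and voom called it lower at 48 h (-0.60). Ddx58 (RIG-I), a sensor of viral RNA, was at 1.87 ± 0.036 FPKM (SD, n = 3) in controls of 48 h and 0.994 ± 0.059 after 72 h of knockdown. Ddx58 fell by 0.85 ± 0.05 (SE) on the log2 scale at 72 h (limma adjusted p = 0.000122) and by 0.86 ± 0.05 at 240 h (limma adjusted p = 0.000171), and at 48 h it differed by -0.27 (limma adjusted p = 0.00921).

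Interferon-stimulated effectors that are used as reference markers of a response were at the edge of detection. Isg15, a ubiquitin-like modifier, had at most 3 reads in any library, and Ifit1, which binds viral RNA, at most 2. Of the 59 effectors, 8 or 9 were tested at the FPKM minimum, with 1, 2 and 2 called at 48 h, 72 h and 240 h, all lower. Of all genes tested by that fit, 2.01%, 5.3% and 4.12% were called lower. Dtx3l, a ubiquitin ligase that partners with Parp9, was at 2.09 ± 0.11 FPKM (SD, n = 3) in controls of 48 h, 1.42 ± 0.060 after 48 h and 0.708 ± 0.059 after 72 h of knockdown. Dtx3l fell at 72 h (-1.44, SE 0.07, limma adjusted p = 7.21e-05) and 240 h (-0.83, SE 0.06, limma adjusted p = 0.000393).

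Trim25, the ubiquitin ligase that activates RIG-I, fell at 72 h (-0.79, SE 0.04, limma adjusted p = 0.000101), and Ifi30, a thiol reductase of endosomes, fell at 240 h (-0.66, SE 0.15, limma adjusted p = 0.0198). The call of Ifi30 was lost without 240 h kd replicate 1 (adjusted p = 0.0553) or 3 (adjusted p = 0.065), and without 240 h ctrl replicate 2 (adjusted p = 0.053) or 3 (-0.54). At 72 h Ifi30 lay higher, at 7.59, 7.14 and 6.47 FPKM against 4.57, 4.66 and 5.27 in 48 h ctrl without overlap, a difference of 0.54 (SE 0.08, limma adjusted p = 0.00273) that was below the fold threshold, and it rose from 48 h to 72 h of knockdown (0.84, SE 0.09, limma adjusted p = 0.00284). Zc3hav1, which targets viral RNA for decay, fell at 48 h (-0.64, SE 0.07, limma adjusted p = 0.00549), a call that was lost with the replicate number as a block (limma adjusted p = 0.0586) and with a pseudocount of 1 (-0.29), while its difference was 0.51 at 240 h (SE 0.05, limma adjusted p = 0.00141), below the fold threshold. The recovered reads gave 29 effectors tested by voom at 48 h and 72 h and 31 at 240 h. Called were 0 higher and 7 lower at 48 h, 3 higher and 14 lower at 72 h, and 3 higher and 11 lower at 240 h, where 4.99%, 10.4% and 8.41% of all genes tested were called lower. Of those called lower, 3 (48 h), 5 (72 h) and 1 (240 h) passed the read minimum through the controls alone. Those called lower at all 3 timepoints included, chosen after the values were seen, Cmpk2, a mitochondrial nucleotide kinase (-2.00, -1.91 and -0.81), and Parp14, an ADP-ribosyltransferase (-1.03, -1.92 and -0.67). Among these the largest log2 fold change at each timepoint belonged to Xaf1, a pro-apoptotic factor named after its values were seen, with 43 to 66 (48 h) and 68 to 76 (240 h) reads per control library, and 4 to 11 (48 h), 3 to 6 (72 h) and 4 to 6 (240 h) reads per knockdown library. Xaf1 was lower at each timepoint by voom, with log2 fold changes of -2.75, -3.52 and -3.86 and limma adjusted p-values of 6.51e-05, 4.17e-10 and 8.23e-09. Xaf1 at each timepoint, and Cmpk2 at 48 h and 72 h, passed the minimum of 10 reads on average through the controls alone. Those called higher by voom at 72 h, also named after their values were seen, were Igtp (1.38) and Irgm2 (0.77), which are interferon-inducible GTPases, and Ube2l6 (1.497), the conjugating enzyme for Isg15, all at 77 or fewer reads per library.

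In antigen presentation Tap1, a subunit of the transporter that loads peptides for class I molecules, was at 0.384, 0.382 and 0.356 FPKM at 48 h and 0.233, 0.260 and 0.250 at 240 h in controls. Knockdown libraries held 0.682, 0.758 and 0.644 FPKM of Tap1 at 48 h, 1.84, 1.65 and 1.57 at 72 h, and 0.910, 1.12 and 1.06 at 240 h. The knockdown libraries stood apart from their controls at each timepoint. Tap1 rose at each timepoint, with log2 fold changes of 0.74 ± 0.10 (SE) at 48 h, 1.91 ± 0.07 at 72 h and 1.70 ± 0.10 at 240 h and limma adjusted p-values of 0.00899, 4.53e-05 and 0.000248. Tap1 passed the FPKM minimum through its knockdown libraries alone, all controls being below it. The call of Tap1 at 48 h was lost with the replicate number as a block (limma adjusted p = 0.062) and with a pseudocount of 1 (0.30).

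Of all genes tested by voom, 4.33%, 12% and 9.64% were called higher at 48 h, 72 h and 240 h, and 4.99%, 10.4% and 8.41% lower. By voom 1 gene of this list was called higher and 0 lower at 48 h (of 24 tested), 7 higher and 3 lower at 72 h (of 25), and 2 higher and 1 lower at 240 h (of 24). Among these, and named after the values were seen, Tap2, the other subunit of the transporter, had 30 to 33 reads in each control library of 48 h and at least 77 after 72 h of knockdown (1.45, SE 0.19, limma adjusted p = 2.54e-07). Psmb9, an immunoproteasome subunit, had 16 to 23 and 34 to 38 reads (0.86, SE 0.23, limma adjusted p = 0.00208).

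The other genes of this list called by the FPKM fit went both ways. Psmb10, a subunit of the immunoproteasome, fell at 72 h (-0.86, SE 0.07, limma adjusted p = 0.00031), and Cd1d1, which presents lipids, fell at 240 h (-1.26, SE 0.19, limma adjusted p = 0.00528), having passed the minimum through its controls (0.797 FPKM on average, against 0.279 under knockdown). H2-Ke6, which lies in the MHC region but encodes a hydroxysteroid dehydrogenase, rose at 72 h (0.81, SE 0.11, limma adjusted p = 0.00186). Nlrc5, the transactivator of class I genes, had 9 to 58 reads per library and by voom was lower at 72 h (-0.77, SE 0.30, limma adjusted p = 0.0255). Psmb8, also an immunoproteasome subunit, had 2 to 9 reads per library and was not tested.

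In the families of the members themselves, Ifitm7 rose at 240 h (0.72, SE 0.12, limma adjusted p = 0.00866), its controls being below the minimum at a mean of 0.467 FPKM, and Ifitm5, a bone-specific relative, fell at 72 h (-1.38, SE 0.33, limma adjusted p = 0.0164). The Ifitm5 value rested on 13 to 42 reads per library in the controls and 7 to 9 under knockdown, where its mean of 0.470 FPKM was below the minimum, and its call was lost without 72 h kd replicate 3 (-1.28, limma adjusted p = 0.054). Aen, an exonuclease related to Isg20 and induced by p53, rose at 240 h (0.70, SE 0.04, limma adjusted p = 0.000234), from 5.55 ± 0.18 FPKM (SD, n = 3) to 9.04 ± 0.31.

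The pattern of Bst2 over the 15 libraries was compared with those of 7247 genes averaging 1 FPKM or more, with predicted genes and pseudogene symbols left out. The measure was the Pearson correlation of log2(FPKM + 0.1). The libraries share their groups and scaling, so this is a description. The genes most like it were Castor1 (r = 0.990), an arginine sensor, Nme4 (r = 0.986), a mitochondrial nucleoside diphosphate kinase, Apela (r = 0.982), a peptide hormone, Baiap2l1 (r = 0.981) and Hsdl1 (r = 0.980). Castor1 had means of 10.2 (48 h) and 8.56 FPKM (240 h) in controls, and of 15.3 (48 h), 19.7 (72 h) and 16.9 FPKM (240 h) under knockdown. Among the members, Ifitm1 was the most similar at r = 0.903, which put it at rank 232, followed by Ifitm3 (r = 0.868) and B2m (r = 0.826). Ifitm2 (r = 0.283) and H2-K1 (r = 0.021) did not follow Bst2, and H2-D1 (r = -0.512) and Irf1 (r = -0.839) ran against it.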

How the data were processed

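Each library is a mouse embryonic stem cell RNA-seq sample, with groups and replicate numbers from the labels. The authors aligned reads to mm10 with STAR 2.7.0c and used DESeq2 1.30.0 in R 4.0.3, per the submitters' processing notes, and deposited FPKM for 55228 genes. The annotation and the handling of strand and multiply matching reads are not given in the sources used here. Values fit whole reads over the gene span, introns included: 100% came out whole within 0.001 read, and 53297 genes (96.5%) matched GENCODE M21 annotation for strand and exons. Since FPKM are not counts, limma 3.58.1 (R 4.3.3, lmFit, eBayes with trend, two-sided, Benjamini-Hochberg) was run on log2(FPKM + 0.1) for genes averaging 0.5 FPKM or more over the compared libraries. Limma voom with TMM on recovered reads (mean of at least 10), 2 other pseudocounts, no minimum, TPM, median centring, 1 fit of all libraries, no trend, a replicate block and leaving out each library were alternatives. The fit was tested on simulated data. Named were all members, 8 reference genes of the pathway, at most 4 genes per list called at any knockdown timepoint, and the 5 genes most like Bst2, and others only where the text says they were chosen after their values were seen or names markers. The result for 1 of the reference genes is not reported here. Members and lists were chosen with earlier results of these data known.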

Additional observations from a re-analysis of the deposited data

Results flagged for a closer look

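The knockdown effect at 240 h minus that at 48 h was tested as an interaction in limma, and 1 member other than Bst2, whose value is given only as a description, and 7 of the named pathway genes were past the adjusted p threshold. Of these Ddx58, Zc3hav1, Tap1 and Cd1d1 were also past the fold threshold, in a comparison where 5.82% of all genes tested were called. All 7 pathway genes had been called in at least 1 knockdown comparison, by which genes were named. The interaction is built from 2 of those comparisons, so the values of the 7 are a description. For Ifitm1 it was 0.40 (SE 0.08, limma adjusted p = 0.0103), and its groups overlapped at 48 h and stood apart at 240 h. For Ddx58 it was -0.60 (SE 0.05, limma adjusted p = 7.85e-05), with lower levels in knockdown at both timepoints. For Zc3hav1 it was 1.15 (SE 0.08, limma adjusted p = 1.44e-05), with differences of -0.64 at 48 h and 0.51 at 240 h. For Tap1 it was 0.95 (SE 0.13, limma adjusted p = 0.00111), with higher levels in knockdown at both timepoints. The control means of Tap1 (0.374 FPKM at 48 h and 0.248 at 240 h) were below the minimum, which it passed through its knockdown libraries. For Cd1d1 the interaction was -1.29 (SE 0.25, limma adjusted p = 0.00796), on 9 to 46 reads per library. The mean of Cd1d1 in 240 h kd (0.279 FPKM) was below the minimum. For Aen the interaction was 0.44 (SE 0.07, limma adjusted p = 0.0025), for Trim25 0.32 (SE 0.06, limma adjusted p = 0.00459) and for Dtx3l -0.31 (SE 0.08, limma adjusted p = 0.0293), all below the fold threshold.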

How the results depend on the processing

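Member calls rest on few genes close to the fold threshold of 0.58. Calls among the 7 tested members at 48 h (2) became 1 with a pseudocount of 1 and ranged from 1 to 4 without each library in turn. At 240 h the 1 call became 0 with a pseudocount of 1, and 2 with a pseudocount of 0.01 or median centring, and was 1 to 2 without each library. From 72 h to 240 h of knockdown the 2 calls became 1 on TPM. Pathway genes called, by the FPKM fit, with no FPKM minimum and by voom, were 2, 5 and 9 at 48 h, 7, 25 and 34 at 72 h, 8, 15 and 23 at 240 h, 8, 14 and 28 from 48 h to 72 h of knockdown, and 4, 7 and 13 for the interaction, the lower minimum admitting more genes. The controls gave 0, and 1 by voom. With a pseudocount of 1 they were 0 at 48 h, 2 at 240 h, 4 from 48 h to 72 h and 0 for the interaction, and on TPM 4 at 48 h. Without each library the pathway count at 48 h ranged from 1 to 3.

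Small values that were not called changed sign. On TPM, Ifitm3 and Irf1 differed by 0.041 and 0.025 from 48 h to 72 h of knockdown and by 0.013 and 0.016 in the interaction. Without each library in turn, Ifitm2 at 48 h ranged from -0.084 to 0.070, Ifitm3 and Irf1 from 48 h to 72 h from -0.15 to 0.078 and from -0.12 to 0.033, and in the interaction from -0.15 to 0.079 and from -0.11 to 0.041. The cause was not tested. All 3 calls of Irf1 were lost with a pseudocount of 1, which shrinks low values, as were those of Ddx58 at 72 h (-0.53) and of Ddx58 (-0.53), Dtx3l (-0.53), Ptpn6 (-0.50), Ifi30 (-0.51), Cd1d1 (-0.49) and Ifitm7 (0.32) at 240 h.

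In no comparison did all 3 pairs of same-numbered replicates have deviations correlated above 0.1 (r from -0.243 to 0.182), so the number was not taken as a pairing. With the replicate block, calls at 48 h were 1 of the 7 members and 0 pathway genes, and 3 members and 7 pathway genes at 72 h. At 240 h the replicate block gave 1 member and 9 pathway genes. Depth limits Isg20, the interferon genes and most effectors, which were not tested at the FPKM minimum. Over all alternatives 181 counts of calls stayed within 1.5 times the value given and 28 did not.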
